A study of Mus musculus with 20 samples.

Results

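Fat cells store energy as triglyceride, and the genes described here encode 4 enzymes of its synthesis: Gpd1, Gpam, Dgat1 and Dgat2. They were followed in 3T3-L1 cells, an established clonal mouse fibroblast line that turns into adipocytes in culture. The members were all probe sets with no other gene symbol than these 4, which gave 5 probe sets for 4 genes, out of 7542 probe sets for 6137 genes that carried 1 symbol. Array A held Gpam and a pair of Dgat1 probe sets, and array B held Gpd1 and Dgat2. All 5 passed the filter on low values, and no probe set listed with several symbols held a member.

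The cells had been induced with MDI, in standard use a phosphodiesterase inhibitor, a synthetic glucocorticoid and insulin. Total RNA was hybridised at 10 time points to 2 Affymetrix array types: preconfluent, confluent, 6, 12 and 24 hours after induction, and days 2, 3, 4, 7 and 28. Each time point was 1 sample per array type, so the 20 arrays hold no replicate, and no uninduced cells were measured at matching times. For tests, neighbouring times were joined into 4 stages. The stage before induction took the preconfluent and confluent samples (n = 2), and the early stage those of the first 24 hours (n = 3). The middle stage took days 2 and 3 (n = 2), and the late stage took day 4 and everything after it (n = 3). The p-values therefore measure the spread between neighbouring times, which holds true change as well as technical differences.

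Triglyceride is assembled on glycerol 3-phosphate. Gpd1, the cytosolic glycerol 3-phosphate dehydrogenase, makes this backbone from a glycolytic intermediate, and its activity is a classic measure of 3T3-L1 differentiation. Gpam, the acyltransferase of the outer mitochondrial membrane, attaches the first fatty acid. After another acylation and the removal of phosphate, Dgat1 or Dgat2 adds the last fatty acid to diacylglycerol. These are enzymes of the endoplasmic reticulum that catalyse the same reaction but belong to separate protein families.

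RefSeq promoter windows (GRCm38.p6) matched 1 of the 4 members, Gpam, with 2 annotated starts. The 250 bases before each start are shown because the Gpam signal rose during the series and its probe set does not tell transcripts of the 2 starts apart. Capitals mark matches to the motifs searched, on either strand.
Gpam start 1, chr19:55127239-55127488, minus strand: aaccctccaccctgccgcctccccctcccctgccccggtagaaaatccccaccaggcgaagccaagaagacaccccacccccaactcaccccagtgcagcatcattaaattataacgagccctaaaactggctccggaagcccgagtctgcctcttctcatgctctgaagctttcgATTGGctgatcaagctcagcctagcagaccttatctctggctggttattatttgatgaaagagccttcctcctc
Gpam start 2, chr19:55099478-55099727, minus strand: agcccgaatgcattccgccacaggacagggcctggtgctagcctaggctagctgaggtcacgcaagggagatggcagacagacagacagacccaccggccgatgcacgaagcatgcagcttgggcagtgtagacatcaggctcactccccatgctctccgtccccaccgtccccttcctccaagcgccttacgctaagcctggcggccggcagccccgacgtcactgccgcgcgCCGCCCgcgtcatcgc
Start 2 lies downstream of start 1. Motifs were searched on both strands of the 300-base windows of the table, which reach past the start. Window 1 held the CCAAT box, read as its reverse complement and beginning 74 bases before the start, and 37.4% of the 32851 windows in the table held it. Window 2 held the GC box (GGGCGG), likewise in reverse and beginning 16 bases before the start, as did 35.7% of windows. Neither window matched the E-box (CACGTG, held by 7.15% of windows), the C/EBP palindrome (TTGCGCAA, 0.183%), the TATA box (TATAAA, 13.6%), the sterol response element (0.0913%) or the PPAR response element (0.0396%).

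The values below are linear intensities of each probe set, scaled by the authors to a common level on every array. They can fall below 0, as when a mismatched control probe binds more than the matching one. A floor of 136 on array A and 156 on array B replaced lower values before logarithms were taken. Each probe set has its own binding strength, so no order of expression between genes is read from these values.

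Gpd1 was not measurable until day 2. It read -252 in preconfluent and -327 in confluent cells, and -398, -450 and -336 at 6, 12 and 24 hours, all under the floor. On day 2 it read 677, on day 3 11200, and on days 4, 7 and 28 it read 11900, 12500 and 9660. The 5 samples up to 24 hours and the 5 from day 2 on did not overlap. The share of all probe sets that separate in this way was not counted, here or for the other members. Late cells were at least 72.3-fold above cells before induction (log2 change 6.18 ± 0.91 SE, n = 3 against 2, limma adjusted p = 0.00476).

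Dgat2 was also not measurable until day 2. Its readings were -392 and -395 before induction and -133, -232 and -158 in the early samples, all under the floor. It stood at 4560 on day 2, 10200 on day 3 and 10600, 7140 and 9330 in the late samples. Again the samples up to 24 hours and those from day 2 on did not overlap. Late cells lay at least 57.1-fold higher than before (5.83 ± 0.32 SE, n = 3 against 2, limma adjusted p = 7.4e-05).

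Dgat1 was detected at every time point and rose less. Its first probe set read 301 and 408 before induction, 675, 433 and 599 early, 1930 and 3480 in the middle, and 2820, 3520 and 3010 late. Late against before, this was 8.85-fold (3.15 ± 0.35 SE, n = 3 against 2, limma adjusted p = 0.000598). The second probe set read 433 and 877, then 924, 743 and 1080, then 2430 and 3870, and finally 3210, 3910 and 3980, a 5.98-fold rise (2.58 ± 0.37 SE, adjusted p = 0.00221). Both were designed from the same expressed sequence, so they are not independent measurements. In each, all samples from day 2 on lay above all earlier ones.

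Gpam read 131 in preconfluent cells, the only value of it under the floor, and 308 in confluent cells. In the early samples it read 382, 171 and 237, a range that overlaps the values before induction. On days 2 and 3 it stood at 1140 and 1090 and on days 4, 7 and 28 at 1450, 1420 and 1270, all above every earlier sample. Late against before, Gpam rose at least 6.22-fold (2.75 ± 0.41 SE, n = 3 against 2, limma adjusted p = 0.00262). The change was 2.16 without the preconfluent and 3.34 without the confluent sample, called in both fits.

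**Figure D1:**
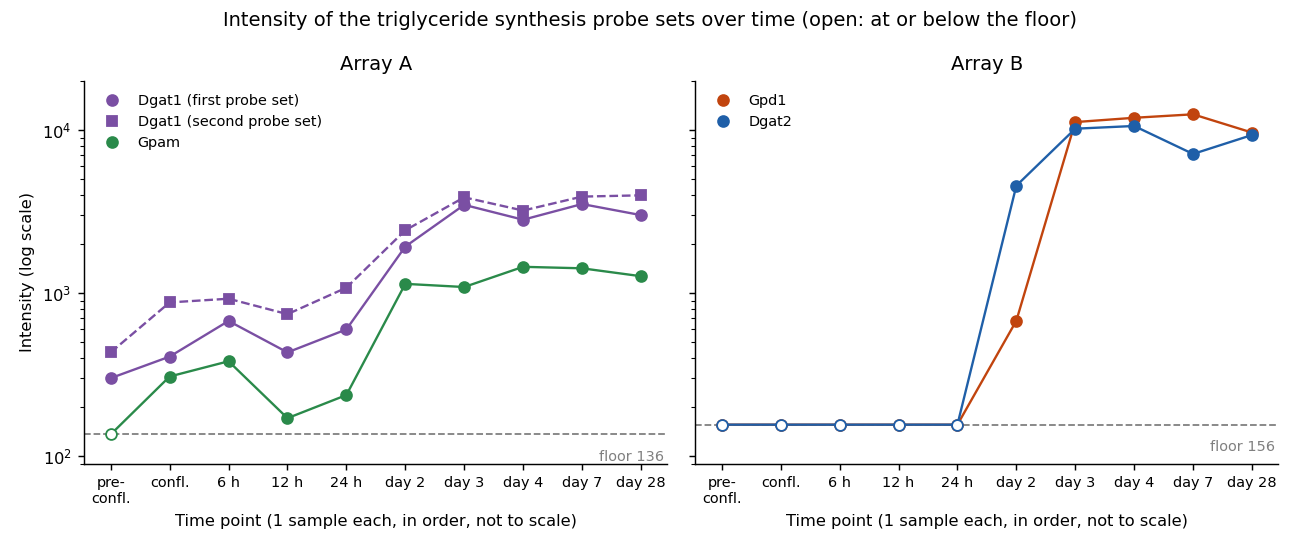
Intensity (log scale) of the 5 probe sets at the 10 time points in order, 1 sample per point, with array A on the left and array B on the right. Open symbols lie at or below the dashed floor, where Gpd1 and Dgat2 overlie each other up to 24 hours. Every probe set shown is higher from day 2 on than at any earlier time, a pattern not counted over all probe sets.

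All 5 member probe sets were thus called higher in late cells at an adjusted p under 0.05. This rule called 5.82% of the 7582 probe sets tested as higher and 5.08% as lower, or 10.9% in all. Gpd1 and Dgat2 passed the filter only through samples from day 2 on, so for them only a rise could have been called. All 5 also changed along the whole series in limma's F test of a smooth curve (adjusted p between 0.00110 and 0.00995), where 16.8% of probe sets were called. Adipocyte markers rose over the same comparison. The summed intensity of 7 measured adipocyte markers lay between 2994 and 10060 before induction and between 87595 and 115975 late, while that of 9 fibroblast markers went from 82872 to 100365 before to 35009 to 65970 late. Day 28 alone gave the upper fibroblast value, and days 4 and 7 summed to 36308 and 35009. More adipocytes in the dish and more RNA per adipocyte cannot be told apart in such bulk samples. Late against before, 6 of 6 tested adipocyte markers were called higher and 3 of 9 fibroblast markers lower. Cidec and Slc2a4 lay under the floor in both samples before induction, so for them only a rise could have been called. Adipoq read 96 and 138 there, under or next to the floor, which left almost no room for a fall. Lep, leptin, was never above the detection limit, and Lpl and Retn were above it in every sample, those before induction included. The macrophage markers summed to 4430 to 4488 before and 2371 to 4143 late, with 2 of 5 tested called lower, and Adgre1, Csf1r and C1qa were never above the detection limit. The muscle markers summed to 4714 to 5161 before and 4731 to 9030 late, with 1 of 6, Des, called higher, and Acta1, Tnnt3 and Tnni2 were never above the limit. Des too was under the floor before induction, so it could only have been called higher. The upper muscle value was day 28 alone, where Mb read 4790, and the late sum reached 5579 without it. The endothelial markers summed to 1473 to 1908 and 1329 to 1685, with 1 of 4 called higher, and Pecam1, Cdh5, Tie1 and Flt1 were never above it. The liver markers summed to 893 to 1242 and 889 to 1321, with 0 of 4 called by limma (0 at an unadjusted p under 0.05), and Hnf4a and Fabp1 were never above it.

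The early comparison asked whether the hormone mixture moved the enzymes within a day. None of the 5 probe sets was called by limma between early and before, against 0.356% of probe sets called in all. None had an unadjusted p under 0.05, against 700 of all 7582 probe sets. Dgat1 had log2 changes of 0.67 ± 0.35 (SE) and 0.55 ± 0.37 (SE), and Gpam one of 0.28 ± 0.41 (SE), with adjusted p between 0.620 and 0.947. Without the preconfluent sample, or without that of 6 hours, the Gpam value turned to -0.31 or -0.024. For Gpd1 and Dgat2 all 5 samples lay under the floor, so no change could be measured.

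A smaller step came before any hormone was given. Between preconfluent and confluent cells, 1 sample each, Gpam rose from under the floor to 308, a ratio of 2.26 with the floor in place. The second Dgat1 probe set gave a ratio of 2.03 and the first a ratio of 1.36. A rise of at least 2-fold at this step was seen in 6.19% of probe sets, and the step has no replicate to test it.

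The middle comparison placed the onset. Between early and middle samples Dgat2 rose at least 43.7-fold (5.45 ± 0.32 SE, n = 2 against 3, limma adjusted p = 0.000327). Dgat1 rose 4.63-fold at its first probe set (2.21 ± 0.35 SE, adjusted p = 0.0127), and Gpam 4.47-fold (2.16 ± 0.41 SE, adjusted p = 0.0353). The second Dgat1 probe set had a change of 1.76 ± 0.37 (SE, adjusted p = 0.0532) and Gpd1 one of 4.14 ± 0.91 (SE, adjusted p = 0.0822). Thus 3 of 5 probe sets were called, all higher, against 0.752% of all probe sets called higher at this step. Dgat2 lay under the floor in every early sample, so it could only have been called higher.

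Several of these middle calls depended on single samples or settings. The Gpam call was lost when any of the samples of 12 hours, 24 hours, day 2, day 3, day 4, day 7 or day 28 was left out (adjusted p = 0.138, 0.0622, 0.139, 0.265, 0.0592, 0.0582 and 0.0517), while its change stayed between 1.89 and 2.19 in those fits. The call of the first Dgat1 probe set was lost without 12 hours or day 3 (adjusted p = 0.0650 and 0.202). The second Dgat1 probe set was called without the preconfluent or the confluent sample (adjusted p = 0.0379 and 0.0384). Gpd1 was called without day 2, at a change of 6.17, and without day 3, at a change of 2.12 (adjusted p = 2.1e-05 and 0.0122). Its middle samples read 677 and 11200. The Dgat2 call held with any 1 sample left out, but was lost on untransformed intensities (adjusted p = 0.147), as was that of the first Dgat1 probe set (adjusted p = 0.113). At a floor of 50 Gpam was no longer called (adjusted p = 0.0702) and Gpd1 was (adjusted p = 0.0319). Without a filter neither Gpam (adjusted p = 0.214) nor the first Dgat1 probe set (adjusted p = 0.0785) was called.

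**Figure D2:**
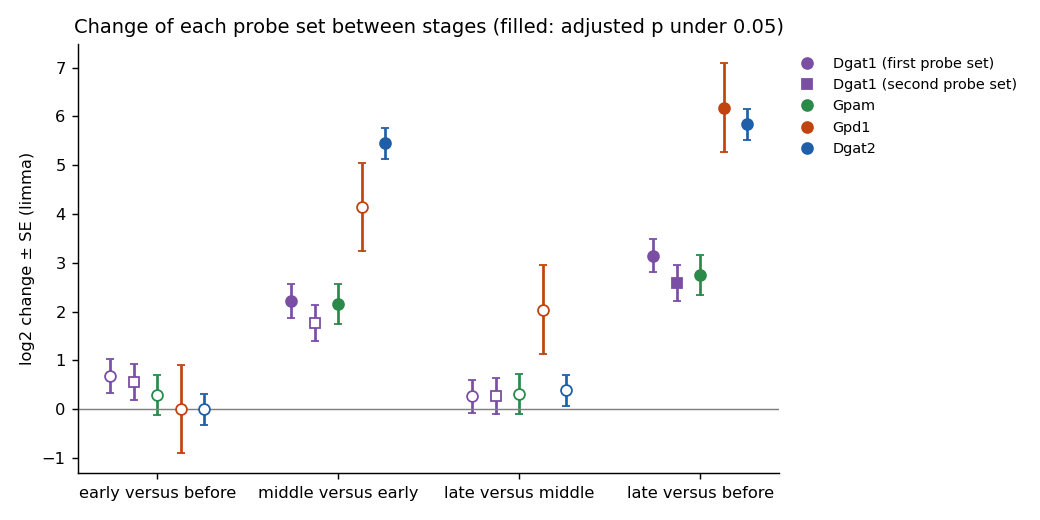
Log2 change of each probe set between stages with its standard error from limma; filled symbols have an adjusted p under 0.05. The rises fall between early and middle and none is called between middle and late, where Gpd1 has the widest error, with 2.03 ± 0.91.

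The steps from 24 hours to day 3 differed in size between the genes. From 24 hours to day 2, Dgat2 rose by a ratio of 29.2 with the floor in place. Gpam rose by 4.81 and Gpd1 by 4.34, again with the floor in place for Gpd1. Dgat1 rose by 3.22 and 2.25 at its probe sets. A rise of at least 4-fold at this step was seen in 0.633% of probe sets. The ratios of Dgat2 and Gpd1 move with the floor, to 91.2 and 13.5 at a floor of 50 and to 15.2 and 2.26 at a floor of 300.

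From day 2 to day 3 the order was another. Gpd1 rose by a ratio of 16.5, the third highest of all probe sets, with both values measured above the floor. Dgat2 rose by 2.24 and Dgat1 by 1.80 and 1.59, while Gpam gave 0.956. A rise of at least 4-fold at this step was seen in 0.528% of probe sets and one of at least 2-fold in 4.50%. Both steps compare 1 sample with 1 sample and have no test.

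The share of the late mean that each gene had reached on day 2 ran in the reverse order. It uses the same day 2 readings as that step, so it is not a separate observation. On day 2 Gpam stood at 82.6% of its mean over days 4, 7 and 28, Dgat1 at 61.9% and 65.7% at its probe sets, Dgat2 at 50.5% and Gpd1 at 5.96%. Among the 441 probe sets called higher in late cells the median share on day 2 was 58.2%, with the middle 50% between 38.7% and 75.7%. Of these, 7 had a lower share than Gpd1 and 354 a lower share than Gpam. By day 3 Gpd1 had reached 98.6%, Dgat2 113%, Dgat1 112% and 105%, and Gpam 79.0%, against a median of 75.0%. The day 2 share of Gpd1 stayed between 5.55% and 6.28%, and that of Gpam between 79.4% and 84.8%, under other floors, quantile normalization or with a late sample left out.

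**Figure D3:**
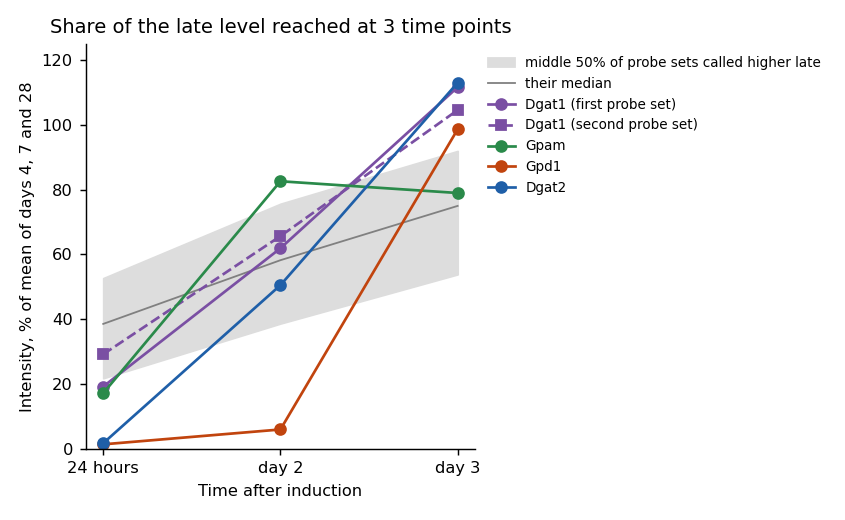
Intensity at 24 hours, day 2 and day 3 as a percent of the mean of days 4, 7 and 28, 1 sample per point, with values under the floor set to it. The grey band is the middle 50% of the 441 probe sets called higher in late cells; on day 2 Gpd1, at 5.96%, lies far below the band and Gpam, at 82.6%, above it.

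The last comparison set the late stage against days 2 and 3 together, so it does not isolate what followed day 3. Between middle and late none of the 5 probe sets was called by limma, against 0.290% of all probe sets called. None had an unadjusted p under 0.05, against 917 of all 7582 probe sets. The changes were 0.26 ± 0.35 and 0.26 ± 0.37 for Dgat1, 0.31 ± 0.41 for Gpam, 0.38 ± 0.32 for Dgat2 and 2.03 ± 0.91 for Gpd1 (all SE, adjusted p between 0.413 and 0.837). The Gpd1 value was called without day 3, with 4.06 ± 0.22 (SE, adjusted p = 0.000563), and was 0.011 without day 2. Without day 2 the values of Dgat2 and Dgat1 turned to -0.20, -0.17 and -0.071.

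Within the late stage the members went their own ways. Dgat2 was lowest on day 7, at 7140 against 10600 on day 4 and 9330 on day 28. Gpd1 was highest on day 7 and lowest on day 28, at 9660. Day 7 was the highest late sample for the first Dgat1 probe set and day 28 for the second, at 3980. Single samples carry these differences.

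The upper values of Gpd1 and Dgat2 lay near the top of what array B recorded. From day 3 on Gpd1 stood at 74.9% to 88.1% of the highest gene reading of its array, and Dgat2 at 42.8% to 78.5%, and the members on array A at 9.97% of its highest or less. Genes present on both arrays did not always change alike. Tpi1, triose phosphate isomerase, changed by 1.28 ± 0.33 (SE, adjusted p = 0.0307) on array A and by 0.47 ± 0.16 (SE, adjusted p = 0.107) on array B, late against before. Cd36 gave 5.25 on array A and 5.83 on array B. The part of a signal ceiling in the course of Gpd1 and Dgat2 from day 3 on was not tested. RNA quality, read as the ratio of 3-prime to 5-prime control probe sets, also moved between stages. On array B that of beta-actin was 0.824 to 0.872 before induction and 0.801 to 1.11 early. It was then 1.06 to 1.08 in the middle and 0.955 to 1.05 late. That of Gapdh on array B was 0.788 to 0.815 before and 0.737 to 0.773 late. On array A that of Gapdh was 0.986 to 1.33 before, 1.43 to 1.61 early, 1.27 to 1.60 in the middle and 0.992 to 1.14 late. That of beta-actin on array A was 1.05 to 1.48 before and 1.39 to 1.45 early. It was then 1.41 to 1.72 in the middle and 1.29 to 1.41 late. The part of RNA quality in the results was not tested.

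Other genes of the pathway were read against the same background, in which 5.82% of probe sets were called higher late against before and 10.9% in either direction. Of 8 tested genes that supply acyl-CoA or glycerol 3-phosphate, 3 were called higher and none lower, with a list median of 0.45 on the log2 scale against -0.05 over all probe sets. Cd36, a fatty acid transporter, rose at least 57.0-fold (5.83 ± 0.55 SE, adjusted p = 0.000781), from readings under 0 up to 24 hours to 1110 on day 2 and 5930 on day 3. With all its samples up to 24 hours under the floor, Cd36 could only have been called higher. Like Gpd1 it stood low on day 2, at 12.5% of its late mean. Dbi, the acyl-CoA binding protein, rose 2.24-fold (adjusted p = 0.0230), a call lost without the preconfluent, confluent or day 28 sample (adjusted p = 0.0932, 0.0972 and 0.0522). It was also lost without a filter, on untransformed intensities and with day 28 as its own stage (adjusted p = 0.0723, 0.0604 and 0.0532). Aldoa, aldolase, rose 2.84-fold at 1 probe set (1.51 ± 0.28 SE, adjusted p = 0.00747), while its other probe sets, both on array B, gave -0.13 and -0.15. Tpi1 entered the count through its array B probe set, the brighter one, which was not called, while that on array A was. Gpd2, the mitochondrial partner of Gpd1 in the glycerol phosphate shuttle, had a change of 0.44 ± 0.54 (SE, adjusted p = 0.673) and stayed between 83 and 446 throughout.

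Other acylation and phosphatidate steps were thinly covered, with 8 of 25 listed names on the arrays and 5 genes tested. Of these 1 was called higher late against before and none lower, with a median of 0.70. It was Bscl2, which encodes seipin, a protein of lipid droplet formation, at least 2.86-fold higher (1.62 ± 0.39 SE, adjusted p = 0.0224). That call was lost without the confluent or the day 4 sample (adjusted p = 0.169 and 0.0562), at a floor of 50 (adjusted p = 0.0880) and without a filter (adjusted p = 0.0898). Bscl2 read 296 and 2 before induction, so its size depends on the floor. Gpat4, a glycerol 3-phosphate acyltransferase of the endoplasmic reticulum, had a change of 0.43 ± 0.46 (SE, adjusted p = 0.609). Mogat2, an acyltransferase that makes diacylglycerol from monoacylglycerol, had one of 1.16 ± 0.47 (SE, adjusted p = 0.150). Agpat3, which encodes an enzyme adding the second fatty acid, had one of 0.70 ± 0.40 (SE, adjusted p = 0.315).

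The phospholipid branch, which draws on the same intermediates for membranes, gave no call late against before by limma among 8 tested genes. With so few genes this is near the background of 10.9% called. An unadjusted limma p under 0.05 was seen for 1 gene of the branch, against 1903 of all 7582 probe sets. The branch had a median of -0.41, and single values ran from -1.01 for Pgs1 to 0.92 for Ptdss2. Other probe sets of Pcyt1a gave -1.49 and -0.26 against -0.56 at its brightest. Tamm41, of mitochondrial cardiolipin synthesis, changed along the series (trend adjusted p = 0.0472), a call lost without any one of the samples from the confluent to day 28 except that of 6 hours (adjusted p up to 0.142). It was also lost at a floor of 300, on untransformed intensities, without a filter, with the intensity-dependent prior and in the F test of stage means (adjusted p = 0.572, 0.186, 0.105, 0.0985 and 0.0530). Triglyceride breakdown had 2 tested genes, both called higher. Lipe, the hormone-sensitive lipase, rose at least 47.5-fold (5.98 ± 0.67 SE, adjusted p = 0.000666) and stood at 64.4% of its late mean on day 2. It read -651 in preconfluent and 688 in confluent cells, and without the one or the other its change was 4.81 or 7.15. Mgll, the monoacylglycerol lipase, rose 4.61-fold (2.21 ± 0.48 SE, adjusted p = 0.0148) and stood at 24.7% on day 2. It read 1020, 875 and 2860 on days 4, 7 and 28, so day 28 alone raised its late mean and lowered that share. Its call was lost without the preconfluent or the confluent sample (adjusted p = 0.0727 and 0.0770), without a filter (adjusted p = 0.1002) and on untransformed intensities (adjusted p = 0.198).

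Among 11 tested regulators of lipid synthesis 2 were called higher late against before and none lower, with a median of 0.25. These were Cebpa and Pparg, the transcription factors of mature adipocytes. Pparg read 267 at 24 hours and 894 on day 2, and on day 2 stood at 66.6% of its late mean. Cebpa read -229 at 24 hours and 1050 on day 2, or 61.0% of its late mean. Both factors and Dgat2, Gpam and the first Dgat1 probe set were thus called higher between early and middle (adjusted p = 0.00761 for Pparg and 0.000350 for Cebpa). Cebpa lay under the floor in every sample up to 24 hours, so in either comparison it could only have been called higher. Pparg was under the floor in both samples before induction, so late against before it too could only have been called higher. Cebpb and Cebpd, factors of the early phase, changed along the series (trend adjusted p = 0.0360 and 0.0377). The Cebpb call was lost without the preconfluent, 12-hour, 24-hour, day 2, day 7 or day 28 sample (adjusted p up to 0.0936). The Cebpd call was lost without the preconfluent, 24-hour, day 2, day 3, day 7 or day 28 sample (adjusted p up to 0.138). Both calls were also lost in the F test of stage means, without a filter and on untransformed intensities, with adjusted p = 0.0561, 0.142 and 0.0669 for Cebpb and 0.268, 0.151 and 0.1195 for Cebpd.

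**Figure D4:**
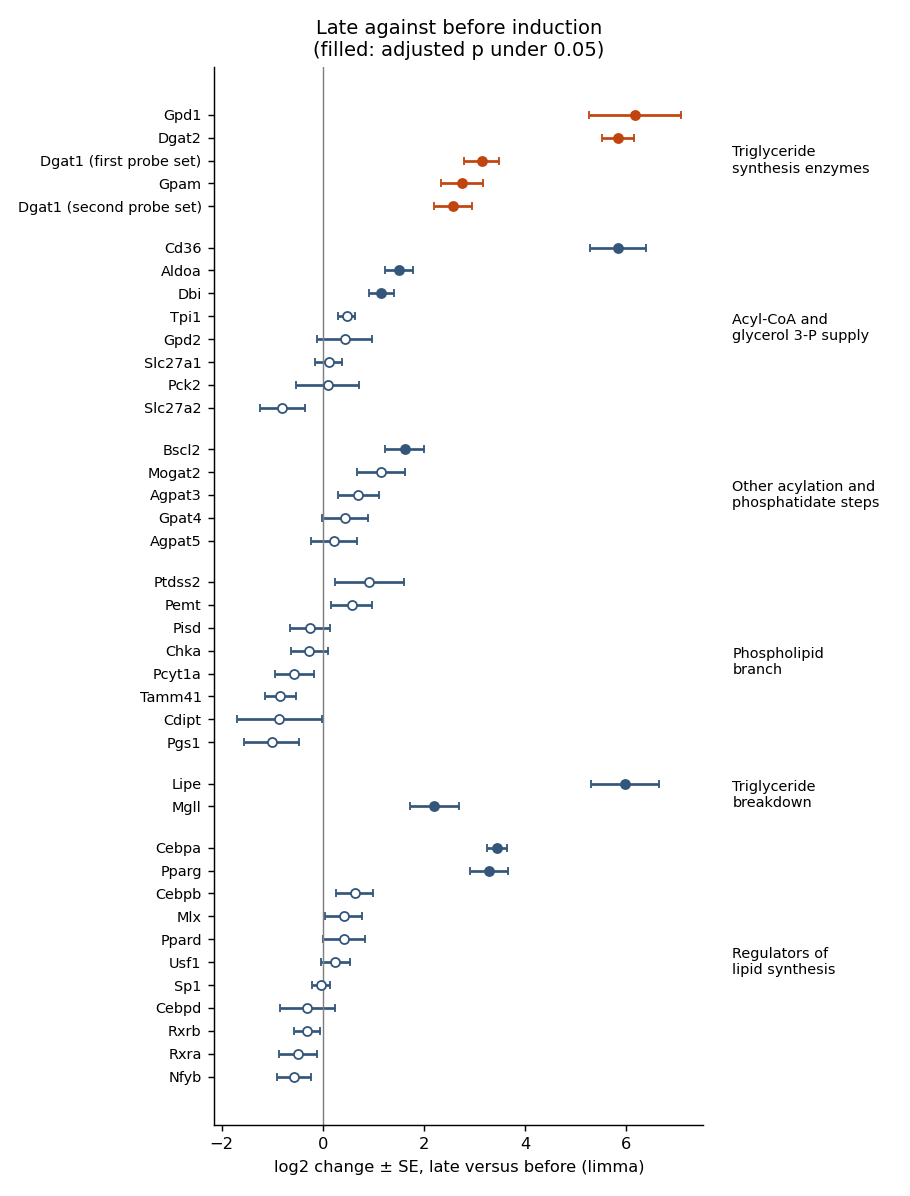
Log2 change late against before with its standard error from limma, for the 5 member probe sets (red) and for the tested genes of 5 related lists (blue, the brightest probe set of each gene). Filled symbols have an adjusted p under 0.05; all 5 members are filled, and none of the 8 genes of the phospholipid branch, where 10.9% of all probe sets were called.

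The genes most like each member in their course were found by Pearson's r of log2 values over the 10 time points, within the same array type and given without a test. For Gpd1 these were Aldh1a7 (r = 0.995), Cd36 (r = 0.993), Alas1, the entry enzyme of heme synthesis (r = 0.980), Icam2 (r = 0.977) and G0s2 (r = 0.977). G0s2 encodes an inhibitor of adipose triglyceride lipase. For Dgat2 they were Cidec, a lipid droplet protein (r = 0.997), Cebpa (r = 0.994), G0s2 (r = 0.987), Cd36 (r = 0.975) and Mtres1 (r = 0.973). Gpd1 and Dgat2 lay at the floor in 5 of 10 samples, so these values rest mostly on the rise after 24 hours. For Gpd1 the larger part of that rise came from day 2 to day 3. Its ratio was 16.5 there, against 4.34 from 24 hours to day 2 with the floor in place. Of 1144 genes compared on array B, 2.62% had an r above 0.9 with Gpd1 and 3.15% with Dgat2.

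Gpd1 and Dgat2 had an r of 0.952 with each other. The first Dgat1 probe set was closest to Mrpl15 (r = 0.974), Uck1 (r = 0.971), Pparg (r = 0.970), Gpam (r = 0.968) and Lipe (r = 0.967). The second was closest to Lipe (r = 0.988) and Lpl, the lipoprotein lipase (r = 0.984), followed by Ndufb5, Mrpl15 and Trak1. Gpam was closest to Qdpr (r = 0.981), Mrpl15 (r = 0.978), the first Dgat1 probe set (r = 0.968), Trak1 (r = 0.959) and Rtn3 (r = 0.958). Of 3191 genes compared on array A, 1.44% had an r above 0.9 with Gpam and 2.38% with the first Dgat1 probe set.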

How the data were processed

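Per the labels, total RNA was extracted with Trizol and labelled with biotin after the array maker's manual. The deposited intensity values were scaled by the authors to a common trimmed mean (500.9 to 501.1 here); their software is not given in the sources used here. Whether both array types took the same RNA extract is not given there. Names came from the platform annotation. The floor was the 10th percentile of an array type with its sign turned. A probe set was tested if above 182 (array A) or 156 (array B) in at least 2 of 10 samples, which kept 7582 of 13069. Stage means were fitted with limma 3.58.1 in R 4.3.3 per array type, on 6 residual degrees of freedom. The trend used a cubic spline (3 df) over the rank of the time points. Benjamini-Hochberg adjustment covered both array types. The script was tested on simulated data, with changes only in probe sets well above the floor and only random noise within a stage. "At least" marks folds with a dimmer sample at the floor. Signal over the limit was similar on all arrays (3100 to 3354 probe sets on A, 2918 to 3040 on B), and the number of arrays limits precision. Alternatives changed the floor, filter, scaling, prior, trend test, scale, late stage and samples. Members and lists were chosen with earlier results of these data known. Named genes were the members, list genes called late against before or along the series (up to 6 per list), and the 5 genes most like each member; Gpd2, Tpi1, Gpat4, Mogat2, Agpat3, Pgs1 and Ptdss2 were added after their values were seen.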

Additional observations from a re-analysis of the deposited data

How the results depend on the processing

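All 5 member probe sets kept their late against before call under all 17 alternatives, and their trend call in 89 of 90 cases; Gpam lost it without a filter (adjusted p = 0.102), where more probe sets were adjusted for. Middle against early, 14 of 80 values fell out of the call and 7 came into it. No filter left 1 member called there and untransformed intensities 1. Direction turned only in uncalled values: early against before for Gpam without the preconfluent (-0.31) or 6-hour sample (-0.024), within a leave-out range up to 0.87, and late against middle without day 2 for Dgat1 (-0.17 and -0.071, ranges up to 0.69 and 0.60) and Dgat2 (-0.20, up to 0.97). Leaving out 1 sample gave 1 to 4 members called in middle against early and 0 to 1 in late against middle. Over all probe sets it gave 354 to 769 calls late against before (826 with all), 0 to 27 early against before (27), 15 to 133 middle against early (79), 2 to 117 late against middle (22) and 923 to 1263 in the trend (1274). No filter gave 412, 15, 15, 12 and 632. A floor of 300 gave 12 late against middle, the F test of stage means 779 in the trend, and the intensity-dependent prior 43 early against before. Untransformed intensities gave 8 early against before, 19 middle against early and 4 late against middle. The cause was not tested. No paired analysis was possible because no time point was replicated. Floors decide the size of the folds of Gpd1 and Dgat2, whose signal up to 24 hours lay below the floor. They also left no spread between those samples, on which the SE and p-values partly rest.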
